A study of Mus musculus with 44 samples.

Results

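The 32 genes described here make cholesterol and fatty acids, or control the genes that do, and all belong to the pathway run by the SREBP transcription factors. They were taken as a fixed list wherever the deposited count tables held them, with the sterol and fatty acid branches kept apart. All 32 were among the 21099 genes counted with RANKL. In the RANKL+CSRM617 table, of 9257 genes, there were 29, without Mvd, Lss and Acss2. The list holds 18 sterol enzymes from Acat2 and Hmgcs1 to Dhcr7, the sterol transfer protein gene Stard4, the 5 regulators Srebf1, Srebf2, Scap, Insig1 and Insig2, and the 8 fatty acid genes Acly, Acss2, Me1, Acaca, Fasn, Elovl6, Scd1 and Scd2. Hmgcs1 was counted among the 7 mevalonate steps, and the other 11 sterol enzymes act from squalene to cholesterol.

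The cells came from small intestinal organoids of a single line, line26, derived from a female Lgr5GFPDTR/+ mouse, so that in every group 1 Lgr5 allele carried an inserted GFP joined to the diphtheria toxin receptor. All organoids first received 3 µM CHIR99021, a GSK3 inhibitor, and 1.5 mM valproic acid for 3 days, followed by 1 day in ENR medium. They were then given 100 ng/mL RANKL, the cytokine that induces M cells, either alone for days 0 to 9 or together with 40 µM CSRM617, an inhibitor of ONECUT2, for days 0 to 6, and medium was renewed every 3 days. Viable single cells were sorted by light scatter, with no marker, into 384-well plates and their transcripts were counted as UMIs by CEL-Seq2. There were 3 plates for each RANKL day and 2 for each RANKL+CSRM617 day, and day 0 plates carry the label of their arm. Day 0 was taken as the state before RANKL or CSRM617. Both arms received RANKL and no group went without it. Changes from day 0 therefore cannot be told apart from time in culture or time since CHIR99021 and valproic acid.

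Cells sense sterol in the endoplasmic reticulum. When sterol is scarce, SCAP escorts SREBP proteins to the Golgi, where they are cut and released to enter the nucleus. INSIG proteins hold the complex back when sterol is plentiful. SREBP2 acts mainly on cholesterol genes and SREBP1 mainly on fatty acid genes, and Insig1 is itself an SREBP target. In the intestine, cholesterol is both absorbed by enterocytes and made by the epithelium, and dividing crypt cells need it for new membrane.

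The promoters of Hmgcs1, Hsd17b7 and Insig1 were chosen after the large decreases of these genes on day 6 had been seen. They are shown with matches to 3 motifs through which SREBP proteins or their partner NF-Y can act. Of these promoters only that of Hmgcs1 matched the sterol regulatory element core. Each run gives bases that lie before both the RefSeq start and the GENCODE gene start in GRCm38.p6, read on the gene's own strand. The Hsd17b7 and Insig1 runs, of 214 and 201 bases, therefore end short of the RefSeq start. A further Hsd17b7 CCAAT box, at -12 from the RefSeq start, lies outside its run. Capitals mark the sterol regulatory element core TCACNCCAC, the E-box CACGTG and the CCAAT box, which reads ATTGG on the other strand. Hmgcs1 lies at chr13:119690101-119690350 on the plus strand, Hsd17b7 at chr1:169969242-169969455 on the minus strand and Insig1 at chr5:28071162-28071362 on the plus strand.
Hmgcs1: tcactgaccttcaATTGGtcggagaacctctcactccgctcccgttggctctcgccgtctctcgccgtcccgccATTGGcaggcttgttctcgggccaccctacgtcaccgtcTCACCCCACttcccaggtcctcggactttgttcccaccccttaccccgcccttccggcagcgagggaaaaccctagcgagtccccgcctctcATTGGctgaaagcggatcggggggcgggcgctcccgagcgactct
Hsd17b7: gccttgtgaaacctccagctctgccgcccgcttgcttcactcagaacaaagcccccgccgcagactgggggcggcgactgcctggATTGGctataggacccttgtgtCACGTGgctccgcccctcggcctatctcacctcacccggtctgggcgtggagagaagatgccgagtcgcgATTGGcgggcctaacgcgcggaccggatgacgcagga
Insig1: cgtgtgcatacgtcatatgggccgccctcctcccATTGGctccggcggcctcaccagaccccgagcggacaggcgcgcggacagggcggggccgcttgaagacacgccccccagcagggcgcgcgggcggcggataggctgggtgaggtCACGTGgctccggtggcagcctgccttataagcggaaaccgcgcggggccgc
The Hmgcs1 run holds the sterol regulatory element core and 3 CCAAT boxes. The Hsd17b7 run holds an E-box and 2 CCAAT boxes, and the Insig1 run an E-box and 1 CCAAT box. RefSeq windows of 250 bases before and 50 bases after a start were matched for 26 of the 32 members. On both strands, the CCAAT box was found in 22 of these 26, against 41.1% of the 27025 genes with a window. The E-box was found in 5 of 26, namely Dhcr7, Hsd17b7, Insig1, Sc5d and Scap, against 8.09% of genes. The sterol regulatory element core was found only in Hmgcs1 among the 26, against 1.44% of genes. The 3 motifs share no overlapping letters in the runs shown, and a match describes letters, not binding.

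After wells with fewer than 1000 UMIs were set aside, 6558 RANKL and 1673 RANKL+CSRM617 cells were left, 26 to 282 and 24 to 223 per plate. Plates held 155940 to 1640523 and 47976 to 835772 UMIs, and the 32 genes took 0.409% to 1.21% and 0.685% to 1.20% of them. RANKL day 0 plate 2 had 26 cells, and the day 4 plates had 32 to 120 cells with RANKL and 24 to 43 with CSRM617. All 8 epithelial markers had UMIs in both tables, while immune and stromal markers came to 43 and 77 UMIs over the whole RANKL table. Plates of 1 line were the replicates and no label assigns them to separate cultures. The p-values therefore cover plate-to-plate spread only, which may be technical. The labels name no library batch. RANKL+CSRM617 plates carry an L tag that recurs on different days, but its meaning is not given and it was not used in the fits. A day and any handling shared by the plates of that day cannot be told apart. Levels below, other than those within clusters, are UMI counts summed over a plate and given per 1000000. They are scaled by TMM (CPM) and shown as mean ± SD. In such sums fewer cells of a type and less RNA per cell cannot be told apart. A gene was called when its adjusted p in edgeR's quasi-likelihood test was under 0.05 over all genes tested.

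With RANKL both branches had 2 low points, on days 6 and 9. The summed sterol enzymes were also lower on day 1 and from day 4 on than on day 0. Single sterol enzymes varied, and on day 3 5 of the 16 tested were lower than on day 0, against 10.2% of all genes. Their median log2 change was -0.23, and 3 of the 16 changes were positive. The 18 sterol enzymes summed to 4905 ± 402 CPM on day 0 (n = 3). Day 1 gave 3554 ± 196, day 4 gave 2692 ± 209.7 and day 5 gave 3107 ± 77.5. Day 6 then gave 1657 ± 83.6, followed by 2996 ± 15.8 on day 7, 2940.4 ± 277 on day 8 and 1984 ± 178 at day 9. The fatty acid genes, of whose sum Scd2 gave the larger part, shared these low points but not the early course. They summed to 4747 ± 706 CPM on day 0, 4101 ± 75.5 on day 1, 4672 ± 82.7 on day 2 and 4613 ± 169.8 on day 3, and the plates of days 1, 2 and 3 lay within the range of day 0. On day 4 the sum was 3629.9 ± 478 CPM, then 3506 ± 72.5 (day 5) and 1655 ± 158 (day 6). It then stood at 3523 ± 193 (day 7), 3595 ± 269 (day 8) and 1843 ± 254 (day 9). Without Scd2 the fatty acid sum was 799 ± 115 CPM on day 5, 419 ± 23.4 on day 6, 696 ± 58 on day 7, 710.4 ± 17.9 on day 8 and 431 ± 42.8 on day 9.

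**Figure D1:**
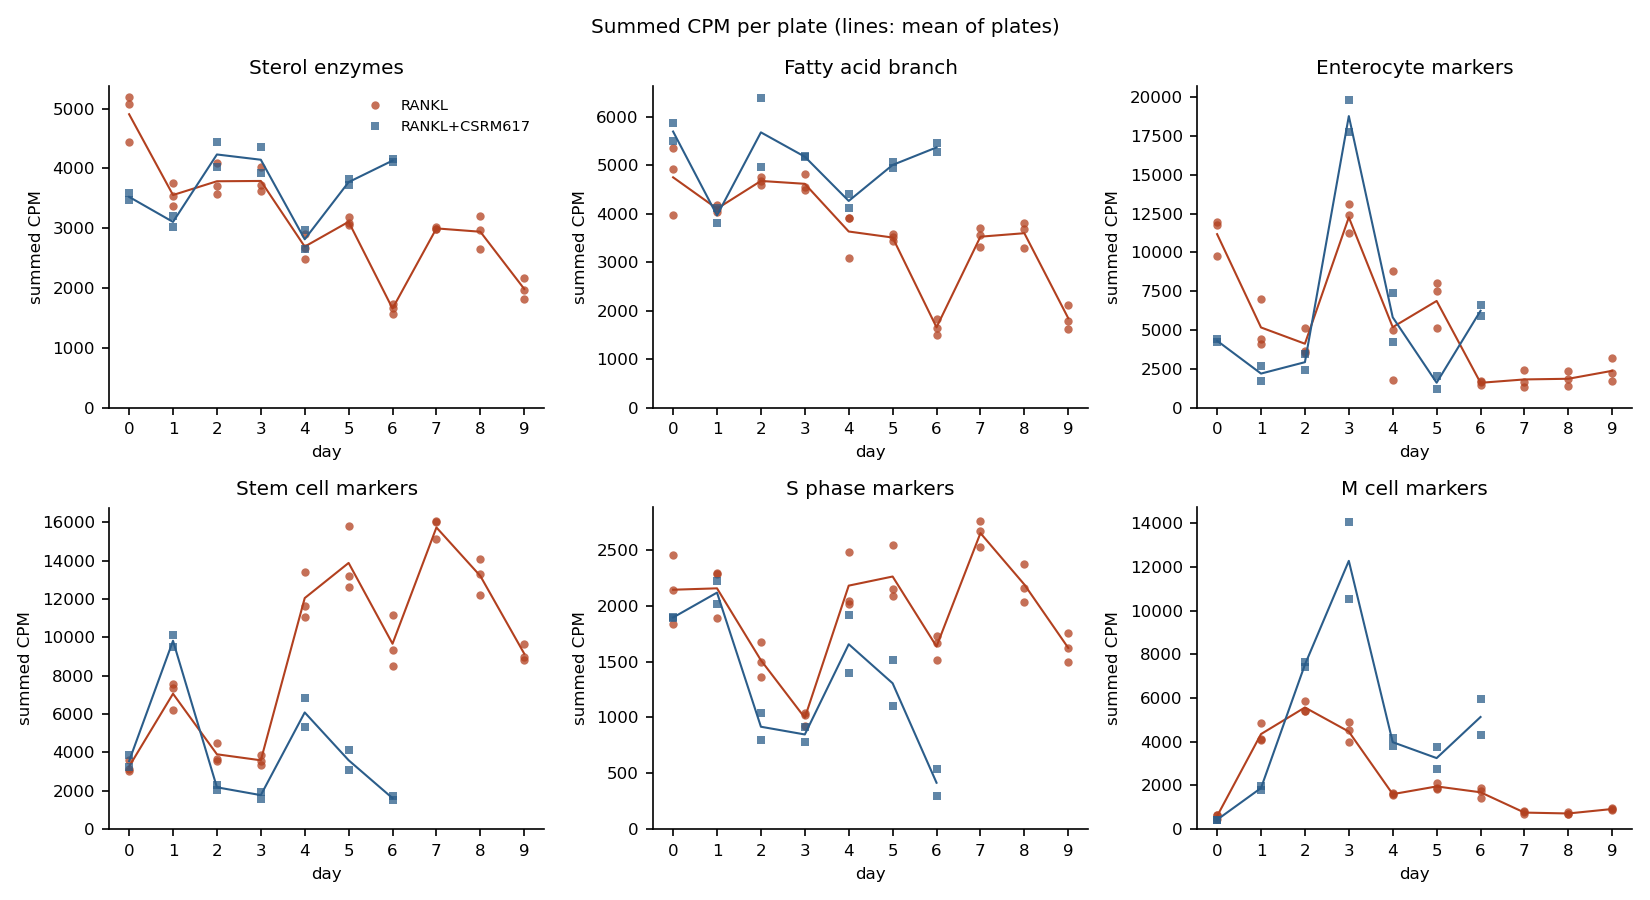
Summed CPM by day (x axis) for the sterol enzymes, the fatty acid genes and 4 lists of cell markers, each point a plate and each line the mean of an arm; the arms were scaled separately and the RANKL+CSRM617 table lacks 3 of the 32 genes. With RANKL alone both sums drop on day 6 (1657 and 1655 CPM), return on day 7 (2996 and 3523 CPM) and drop again on day 9 (1984 and 1843 CPM).

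In the mean of the RANKL plates, 27 of the 30 tested members had their lowest day on day 6 or day 9, 22 of them on day 6, against 20.7% of the 10000 genes tested. The level on both days 6 and 9 was below that of the neighbouring days in 27 of 30, against 25.6% of all genes. All 16 tested sterol enzymes and all 8 fatty acid genes showed this shape, and Stard4, Scap and Insig2 did not. Days 6 and 9 were singled out from these same levels, so the counts describe the pattern and do not test it. Medium was renewed every 3 days, and whether cells of days 6 and 9 were taken before or after a renewal is not given. The low days and the renewals therefore cannot be told apart. The highest day was day 0 in 75% of the sterol enzymes but in 25% of the fatty acid genes, Acss2 and Scd1, against 21.4% of all genes. Mvd, with 18 UMIs in the whole RANKL table, and Lss, with 114, were too low to be tested. Mvd encodes the enzyme that makes isopentenyl diphosphate and Lss encodes lanosterol synthase.

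**Figure D2:**
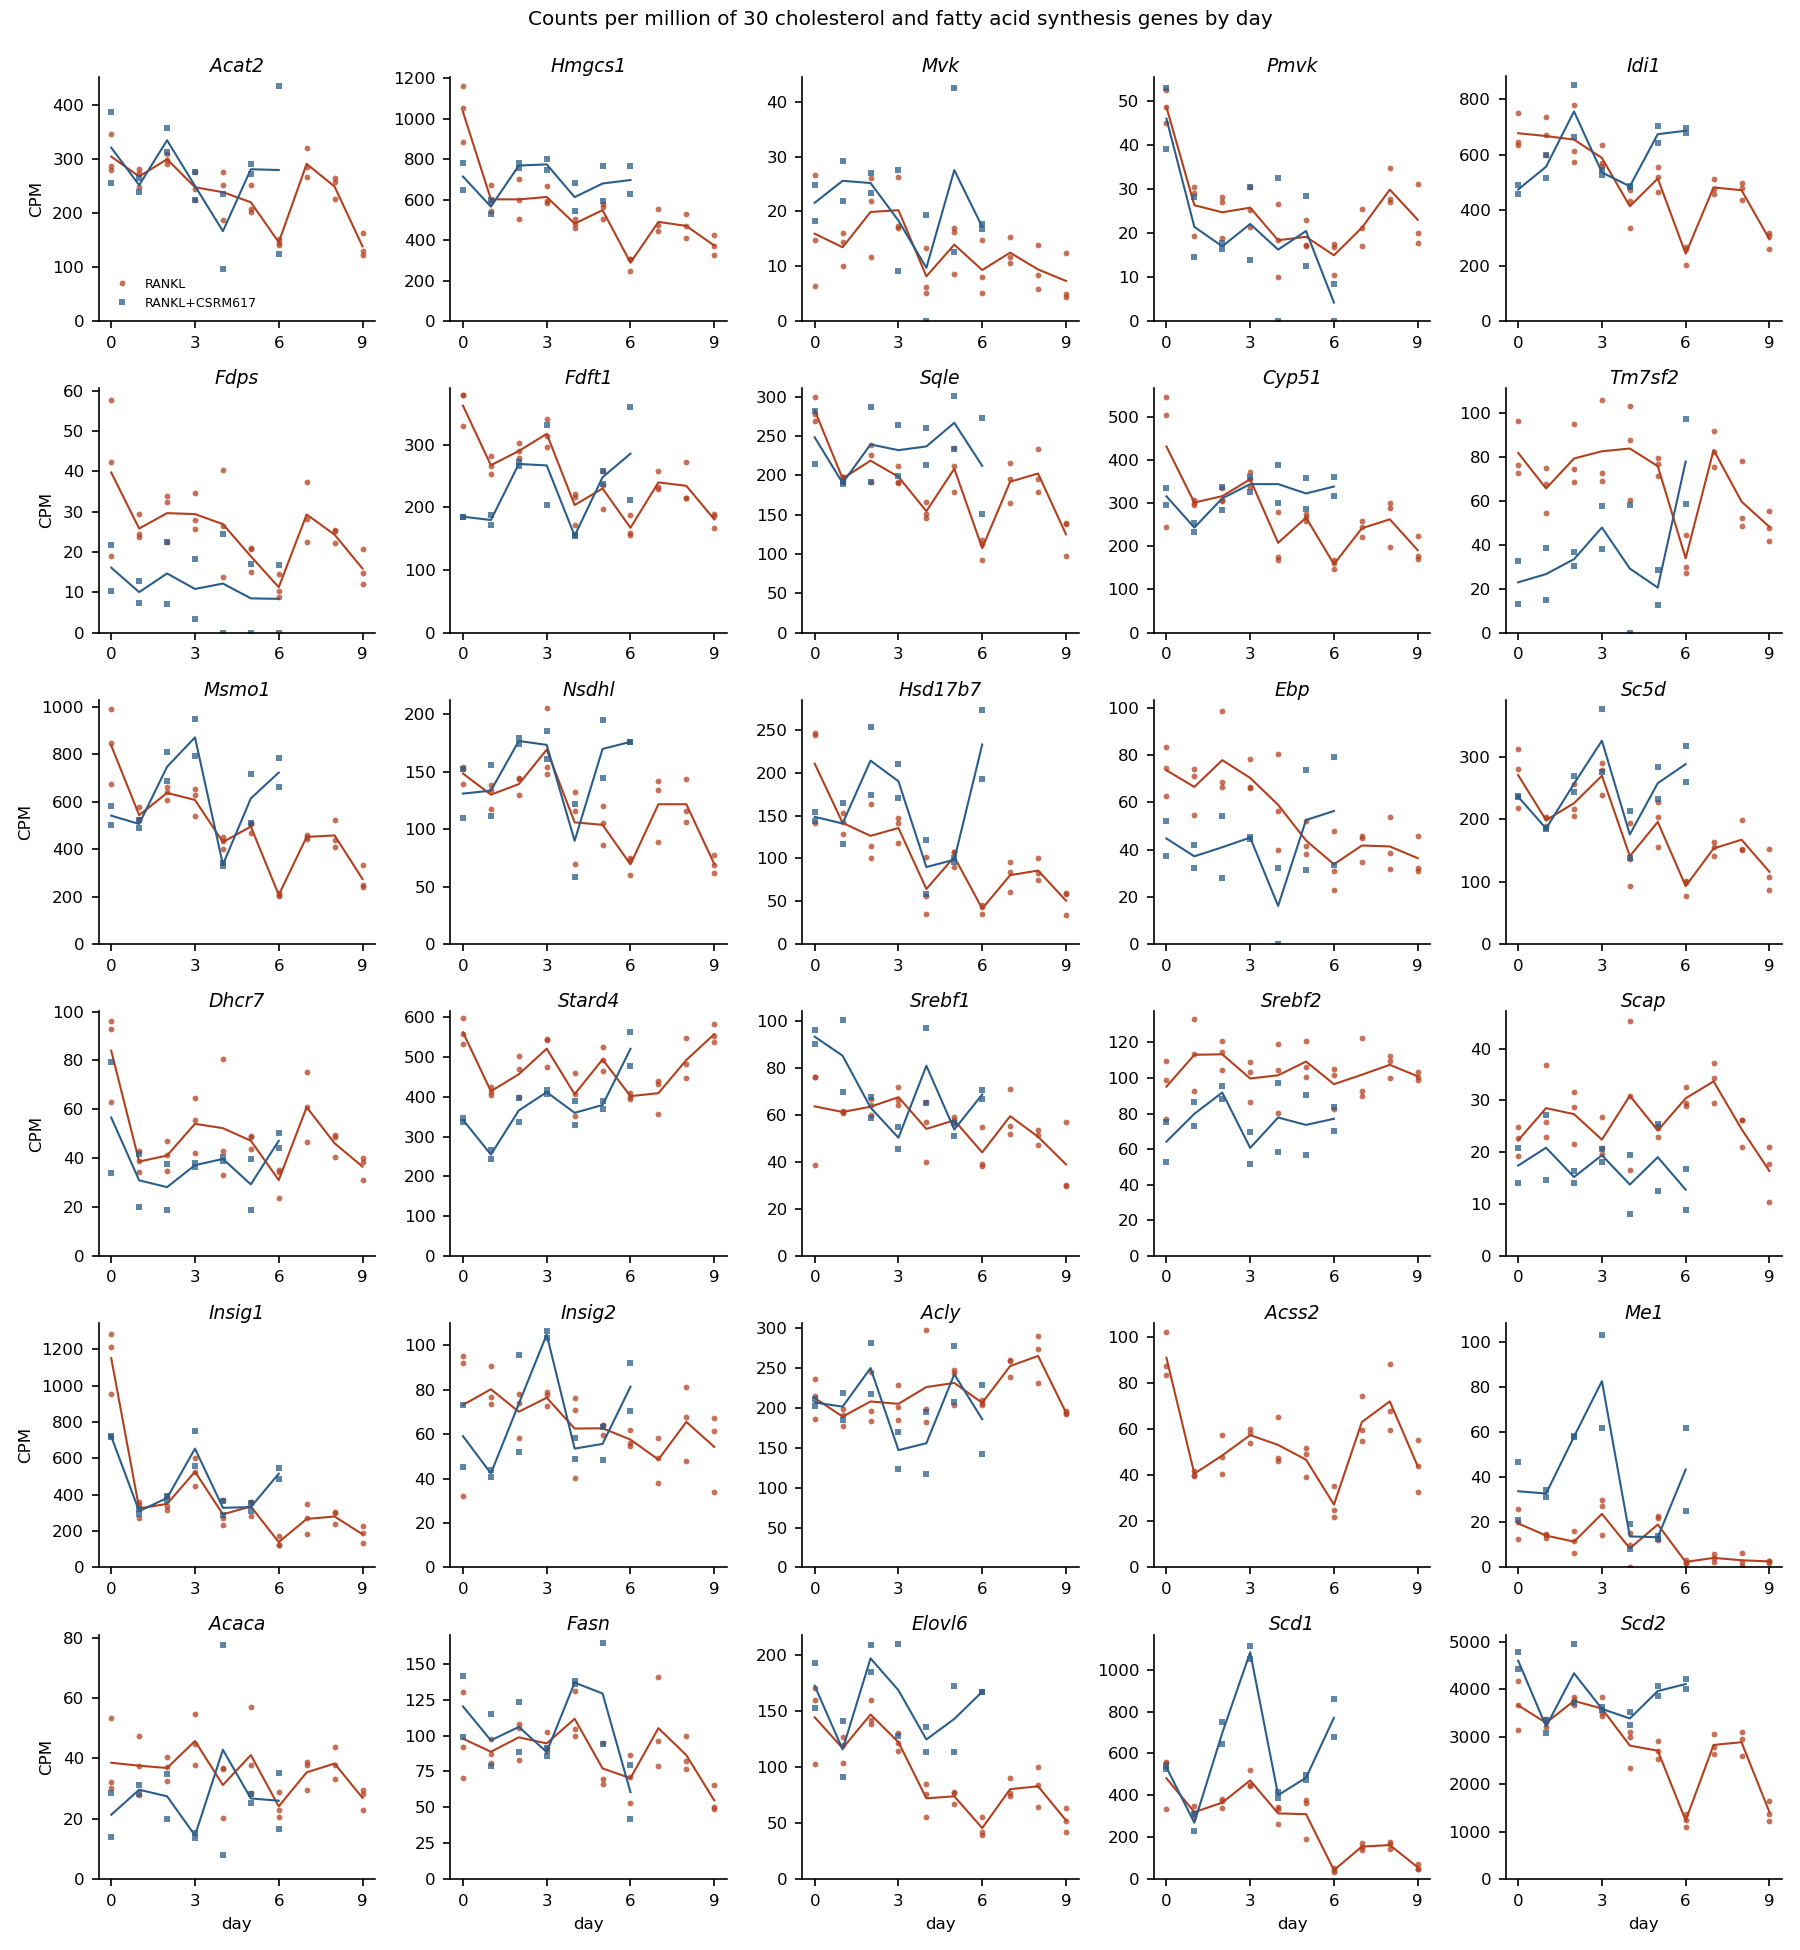
CPM of each of the 30 tested members (1 panel a gene, y axes starting at 0) by day, with points for plates and lines for the mean of an arm, scaled within each arm. With RANKL alone, 27 of the 30 mean lines are lower on days 6 and 9 than on the neighbouring days; Stard4, Scap and Insig2 are the exceptions.

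Day 6 against day 0 gave the widest change. With RANKL 26 of the 30 tested members were lower on day 6 and none was higher, where 19.4% of all genes tested were lower. The median log2 change was -1.39 over the members and 0.04 over all genes. It was -1.43 for the 16 sterol enzymes, -1.67 for the 8 fatty acid genes and -0.57 for the 5 regulators. By DESeq2 24 members were called.

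Among the mevalonate steps, Hmgcs1, which condenses acetyl-CoA units into HMG-CoA, stood at 1163, 885 and 1054 CPM in the 3 day 0 plates and at 306, 249 and 309 CPM on day 6. The plates of the 2 days did not overlap, and the log2 change was -1.86 ± 0.14 (SE, edgeR adjusted p = 1.2e-12). Idi1, the isomerase that makes the activated isoprene unit, went from 646, 751 and 636 CPM to 267, 201 and 260.2 CPM (log2 change -1.46 ± 0.14). Acat2, which joins acetyl-CoA into acetoacetyl-CoA, Pmvk and Fdps also fell, by 1.02, 1.74 and 1.59 on the log2 scale. Mvk, mevalonate kinase, with 450 UMIs in the table, had a change of -1.01 ± 0.44 (edgeR adjusted p = 0.068).

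All 10 tested enzymes from squalene to cholesterol fell, by 1.04 (Ebp) to 2.43 (Hsd17b7) on the log2 scale. Msmo1, which oxidises the methyl groups at carbon 4 of the sterol ring, was at 846, 674 and 989.9 CPM on day 0 and at 202, 206 and 215 CPM on day 6. That is a 4.1-fold decrease (log2 change -2.04 ± 0.14, edgeR adjusted p = 5.6e-14), and the day 6 plates lay far closer together than those of day 0. Hsd17b7, the ketoreductase of the same demethylation steps, went from 247, 141 and 244 CPM to 45.9, 35.2 and 43.5 CPM. Sqle, squalene epoxidase, went from 278, 269 and 299.8 CPM to 91.8, 113 and 117 CPM, and Dhcr7, which acts at the end of the pathway, from 92.9, 96.2 and 62.8 CPM to 34.4, 35.2 and 23.5 CPM. Fdft1, squalene synthase, Cyp51, the lanosterol demethylase, and Nsdhl, a sterol dehydrogenase, fell by 1.10, 1.54 and 1.08 on the log2 scale. Sc5d, a sterol desaturase, and Tm7sf2 fell by 1.60 and 1.18. None of Msmo1, Hsd17b7, Sqle and Dhcr7 had a day 6 plate that reached its lowest day 0 plate.

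Of the fatty acid genes 7 of 8 fell. Scd1, a stearoyl-CoA desaturase that makes monounsaturated fatty acids, stood at 552, 334 and 559 CPM on day 0 and at 34.4, 42.4 and 51.3 CPM on day 6, an 11.7-fold decrease (log2 change -3.55 ± 0.22, edgeR adjusted p = 1e-14). Its paralog Scd2 went from 3669, 3150.4 and 4166 CPM to 1373, 1098 and 1237 CPM (log2 change -1.57 ± 0.13). Elovl6, which lengthens fatty acids, went from 171, 103 and 159.9 CPM to 55.6, 39.3 and 41.8 CPM (-1.76 ± 0.18). Acss2, which makes acetyl-CoA from acetate, went from 102, 83.4 and 87.6 CPM to 35.3, 24.8 and 21.8 CPM (-1.76 ± 0.21). In these 3 genes, as in Scd1, no day 6 plate reached day 0. Me1, malic enzyme, fell by 3.09 on the log2 scale, from 51 UMIs in all day 0 plates to 8 on day 6. Acaca and Fasn, which encode acetyl-CoA carboxylase and fatty acid synthase, had smaller decreases of -0.74 ± 0.28 and -0.59 ± 0.21 (edgeR adjusted p = 0.032 and 0.026). Acly, ATP citrate lyase, had 236, 186 and 215 CPM on day 0 and 209, 206 and 204 CPM on day 6, overlapping levels with a log2 difference of -0.08 ± 0.15.

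The regulators split. Insig1 was at 1286, 956 and 1209.8 CPM on day 0 and at 121, 174 and 124 CPM on day 6 (log2 change -3.07 ± 0.21, edgeR adjusted p = 7.6e-14). Its relative Insig2 and the SREBP1 gene Srebf1 had decreases of -0.57 ± 0.23 and -0.69 ± 0.21. Srebf2, which encodes SREBP2, was at 109.5, 77 and 99 CPM on day 0 and at 105, 82.8 and 102 CPM on day 6, and neither it nor Scap passed the test (log2 differences -0.05 ± 0.17 and 0.38 ± 0.27). Stard4, which carries sterol between membranes, fell by 0.50 on the log2 scale (SE 0.12).

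Of the 26 calls 21 held under every alternative run, and Acaca, Fasn, Insig2, Srebf1 and Stard4 lost the call when single plates were left out. Insig2 also lost it by DESeq2, with equal weighting, with wells of at least 2000 UMIs and with the replicate block, Acaca by DESeq2 and with equal weighting, and Fasn with equal weighting. Without RANKL day 0 plate 3 Acaca stood at -0.34, and without day 0 plate 1 Fasn, Insig2, Srebf1 and Stard4 stood at -0.22, -0.39, -0.52 and -0.36 on the log2 scale. The 14 enterocyte markers moved with this comparison, from 9798 to 11971 CPM in sum on day 0 to 1435 to 1694 CPM on day 6, and 12 of 12 tested were lower. The 8 stem markers went from 3054 to 3593 CPM up to 8514 to 11146 CPM. Their part in the result was not tested.

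**Figure D3:**
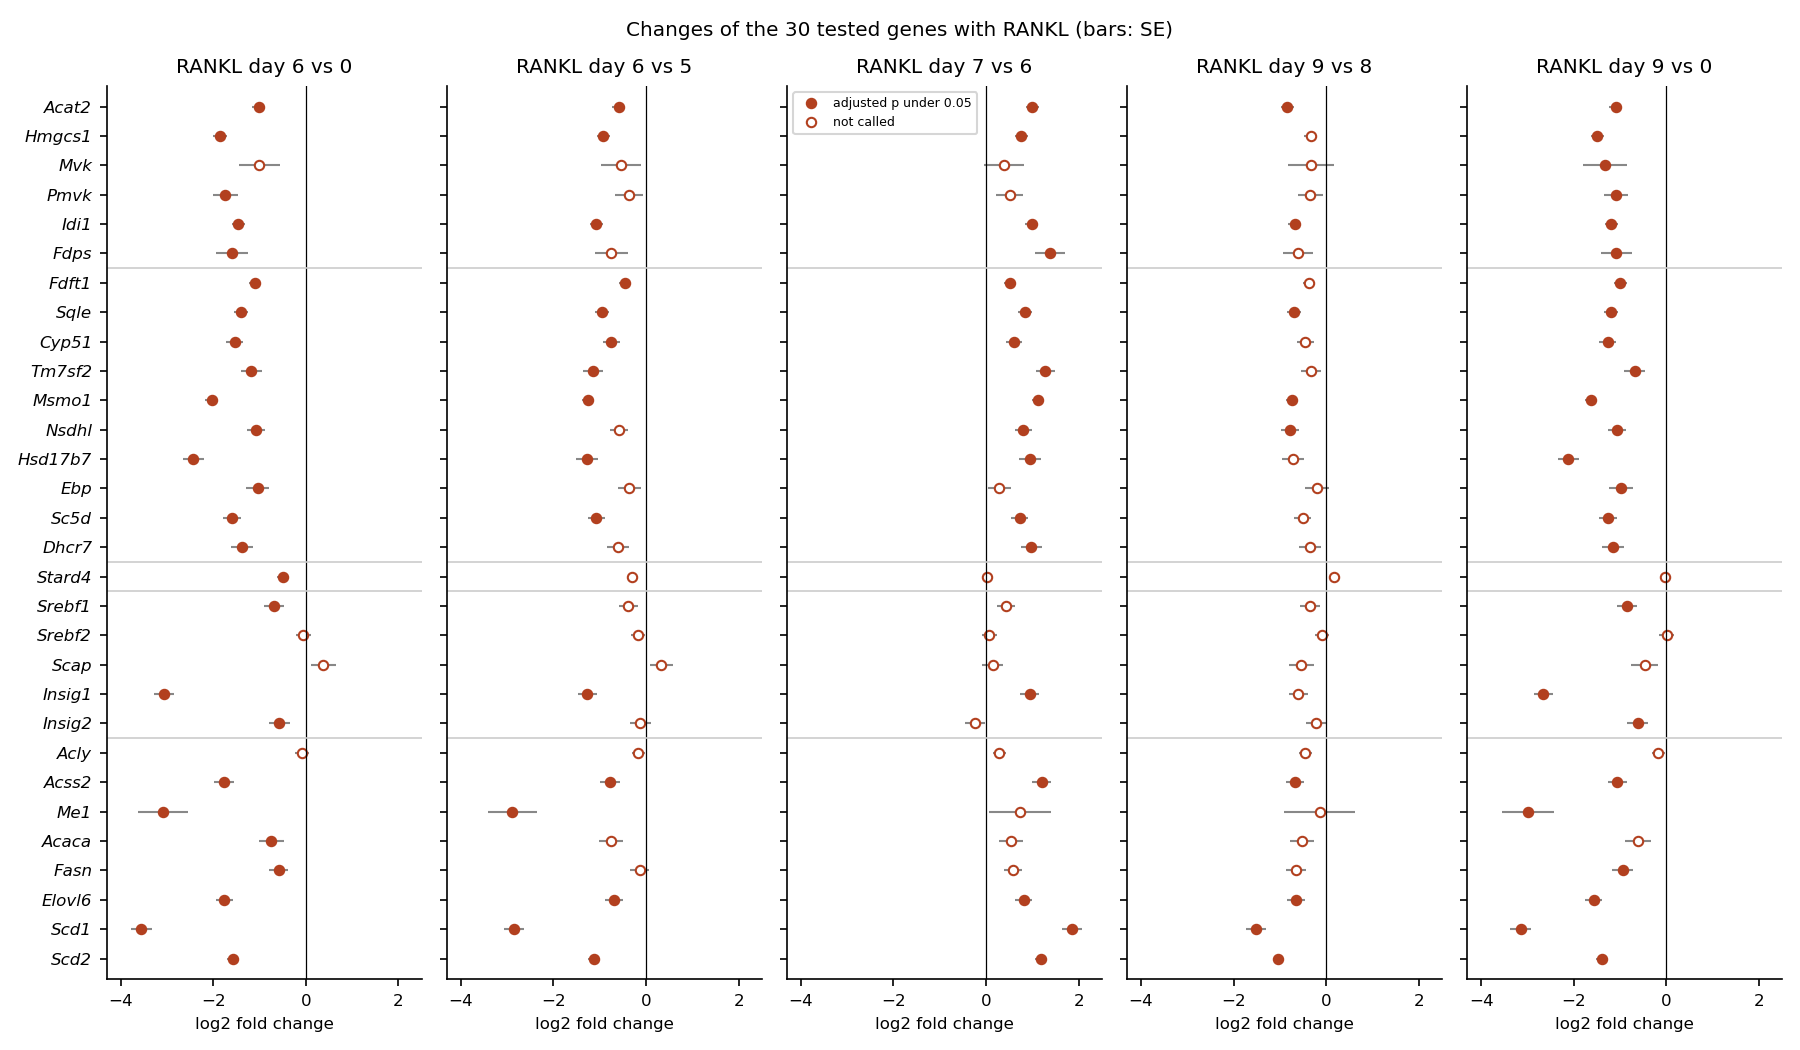
Log2 fold change (x axis, bars are SE) of the 30 tested members in 5 RANKL comparisons, with filled points for genes called by edgeR and open points for others. On day 6 against days 0 and 5 and on day 9 against days 8 and 0, 29 of 30 points lie left of 0 in each panel, and on day 7 against day 6 29 lie right of it.

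Part of the decrease was present after 1 day. On day 1 13 of 30 members were lower than on day 0 and none was higher, against 12.3% of all genes lower. Insig1 had dropped to 342, 362 and 272 CPM (log2 change -1.84 ± 0.19), below every day 0 plate. The others called were the sterol enzymes Hmgcs1, Pmvk, Fdft1, Sqle, Cyp51, Msmo1, Hsd17b7, Sc5d and Dhcr7, with Stard4, Acss2 and Scd1. Their decreases ran from 0.43 (Fdft1) to 1.20 (Acss2) on the log2 scale. Idi1, at 598, 669.6 and 735 CPM on day 1, and Scd2, at 3199, 3304 and 3379 CPM, overlapped with day 0 and were not called. The count was 6 when RANKL day 0 plate 1 was left out and 8 when day 1 plate 2 was left out. Enterocyte markers were lower on day 1 in 8 of 12, while cycling markers were higher in 12 of 12 and M cell markers in 9 of 9.

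On day 3 7 of 30 members were lower than on day 0, against 10.2% of all genes. They were Hmgcs1, Pmvk, Sqle, Msmo1, Hsd17b7, Acss2 and Insig1, the last at 604, 527 and 448 CPM (log2 change -1.15 ± 0.19). Scd1, at 443, 521 and 449.7 CPM, overlapped with day 0. The count was 4 when RANKL day 0 plate 1 was left out. From day 3 to day 4 9 of 30 members fell, against 5.02% of all genes, among them Sc5d (log2 change -0.86 ± 0.20) and Elovl6 (-0.69 ± 0.20). This comparison rests on thin plates, and the count was 4 without day 4 plate 1 and 1 without day 4 plate 3. Stem markers rose in 8 of 8, S phase markers in 11 of 11, and M cell markers fell in 5 of 9 between these days.

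The drop into day 6 and the return on day 7 reached both branches. These comparisons of neighbouring days, and that of day 9 with day 8, were added after the levels by day had been seen. Their p-values and calls therefore describe a pattern already noticed and do not test it independently. From day 5 to day 6 16 of 30 members fell and none rose, against 3.13% of all genes. The median log2 change was -0.72 over members and -0.01 over all genes. Scd1 was at 189, 377 and 364 CPM on day 5, and all 3 day 6 plates were at 51.3 CPM or less (log2 change -2.85 ± 0.22). Msmo1 was at 506, 510.3 and 470.1 CPM on day 5, more than every day 6 plate (-1.25 ± 0.13). Idi1, Scd2, Sc5d, Hsd17b7 and Insig1 fell by 1.07 to 1.28 on the log2 scale. Of the 16 calls 11 held under every alternative run, and Acat2, Acss2, Cyp51, Elovl6 and Fdft1 lost theirs under at least 1.

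From day 6 to day 7 18 of 30 members rose and none fell, against 3.01% of all genes, with a median log2 change of 0.75 against 0.02. Msmo1 was at 451, 459.6 and 445 CPM on day 7 (log2 change 1.12 ± 0.13), Scd2 at 2795, 3057 and 2631 CPM (1.19 ± 0.13) and Scd1 at 174, 139 and 151 CPM (1.86 ± 0.22). Scd2 on day 7 overlapped with its day 5 plates, while Scd1 on day 7 stayed below all 3 of its day 5 plates. Of the sterol enzymes 13 of 16 rose, including Acat2 (1.00 ± 0.14), Fdps (1.38 ± 0.33) and Tm7sf2 (1.28 ± 0.21), a sterol reductase. Insig1 rose by 0.94 ± 0.20, with 1 day 7 plate at 181 CPM close to the highest day 6 plate at 174 CPM. Of the 18 calls 11 held under every alternative run. Cyp51, Dhcr7, Fdft1, Fdps, Hsd17b7, Insig1 and Sc5d lost theirs under at least 1. Srebf1, Srebf2, Scap, Insig2, Stard4 and Acly were not called between days 5 and 6 or days 6 and 7.

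On day 9 9 of 30 members were lower than on day 8, against 2.02% of all genes, and the median was -0.51 against 0.00. Scd1 went from 168, 142 and 178 CPM on day 8 to 48.9, 73.9 and 46.2 CPM (log2 change -1.51 ± 0.22), and Scd2 from 2947, 2597 and 3111 CPM to 1369.8, 1642 and 1223 CPM (-1.03 ± 0.13). Acat2, Idi1, Sqle, Msmo1, Nsdhl, Elovl6 and Acss2 were the others called. Hmgcs1, at 424, 370.4 and 325 CPM on day 9 against 469, 412 and 530.0 CPM on day 8, overlapped and was not called (-0.34 ± 0.14). The count was 5 without day 8 plate 3 and 5 without day 9 plate 3.

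Against day 0, 25 of 30 members were lower on day 9, where 18.4% of all genes were lower. All 16 tested sterol enzymes were among them, but Fdps, Mvk and Tm7sf2, with Fasn, Insig2 and Srebf1, lost the call under at least 1 alternative. Without day 0 plate 1 Fdps stood at -0.61, without day 0 plate 3 Mvk at -0.81 and without day 9 plate 2 Tm7sf2 at -0.47 on the log2 scale. Stard4 was an exception, at 582, 552 and 538 CPM on day 9 against 597, 533 and 557 CPM on day 0 (log2 difference -0.02 ± 0.12). Acly, Srebf2, Scap and Acaca were not called either. Enterocyte markers were lower on day 9 than on day 0 in 12 of 12.

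The enterocyte sum fell from 5104 to 8027 CPM on day 5 to 1435 to 1694 CPM on day 6, with 11 of 12 markers lower. On days 7, 8 and 9 it lay at 1317 to 2452, 1380 to 2349 and 1696 to 3179 CPM, with 4 of 12 markers higher on day 7 than on day 6 and 0 of 12 called between days 8 and 9. The S phase sum was 2092 to 2544 CPM on day 5, 1511 to 1734 CPM on day 6 and 2530 to 2758 CPM on day 7, with 5 of 11 markers lower on day 6 and 7 of 11 higher on day 7. The stem sum was 12621 to 15829 CPM on day 5, 8514 to 11146 CPM on day 6 and 15155 to 16048 CPM on day 7, with 1 of 8 markers lower on day 6 and 6 of 8 higher on day 7. The M cell sum fell between days 6 and 7, with 7 of 9 markers lower, and 4 of 12 cycling markers fell between days 8 and 9. Median UMIs per well also differed, at 4580 to 5285 on day 5, 3443 to 3999 on day 6, 3986 to 4703 on day 7, 3210 to 4461 on day 8 and 2968 to 4214 on day 9.

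The drop was next read within groups of like cells. Wells were clustered on variable genes from which the 32 members had been left out, and counts were summed per cluster and day. Both sums were lower on day 6 than on day 5 in all 6 clusters with at least 20 wells on both days, lower on day 6 than on day 7 in 7 of 7, and lower on day 9 than on day 8 in 8 of 8. A cluster led by Rgcc, Tnfrsf19 and Olfm4 stayed unnamed and is called Lgr5-high below. Cdca7, Dtl, Lgr5 and Cdc6 were also among its leading genes. Its sterol sum was 2596 ± 405 CPM on day 5, 1752 ± 45.1 on day 6 and 2784 ± 143 on day 7 (n = 3 plates). Days 8 and 9 gave 2756 ± 188 and 1844 ± 296. In a cycling-like cluster led by Cenpf and Aspm the sterol sum was 3287 ± 320 CPM on day 5, 1941 ± 110.3 on day 6 and 3458 ± 240.3 on day 7, then 2906 ± 274 on day 8 and 1876 ± 114 on day 9. The cluster led by Edn1, Anxa3 and Clu, which stayed unnamed, had 1714 ± 84.4 CPM on day 6 and 2082 ± 259 on day 9. Its pooled sterol sums on days 5, 7 and 8 were 2273, 2209 and 2596 CPM. This cluster held 6.09%, 40.0%, 3.18%, 4.28% and 46.4% of RANKL wells on days 5, 6, 7, 8 and 9 (means of plates). The Lgr5-high cluster held 26.3%, 10.2%, 44.2%, 34.6% and 13.8%. The part of these shares in the low points of whole plates was not tested. In a cluster led by Clec2h, Adgrd1 and Guca2b, with 33 and 23 wells on days 8 and 9, the pooled sterol sum was 4532 and 4171 CPM and the pooled fatty acid sum 5583 and 2619 CPM. The 1 plate on each of those days with at least 10 of its wells had a sterol sum of 4167 and 4887 CPM, in the other direction.

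**Figure D4:**
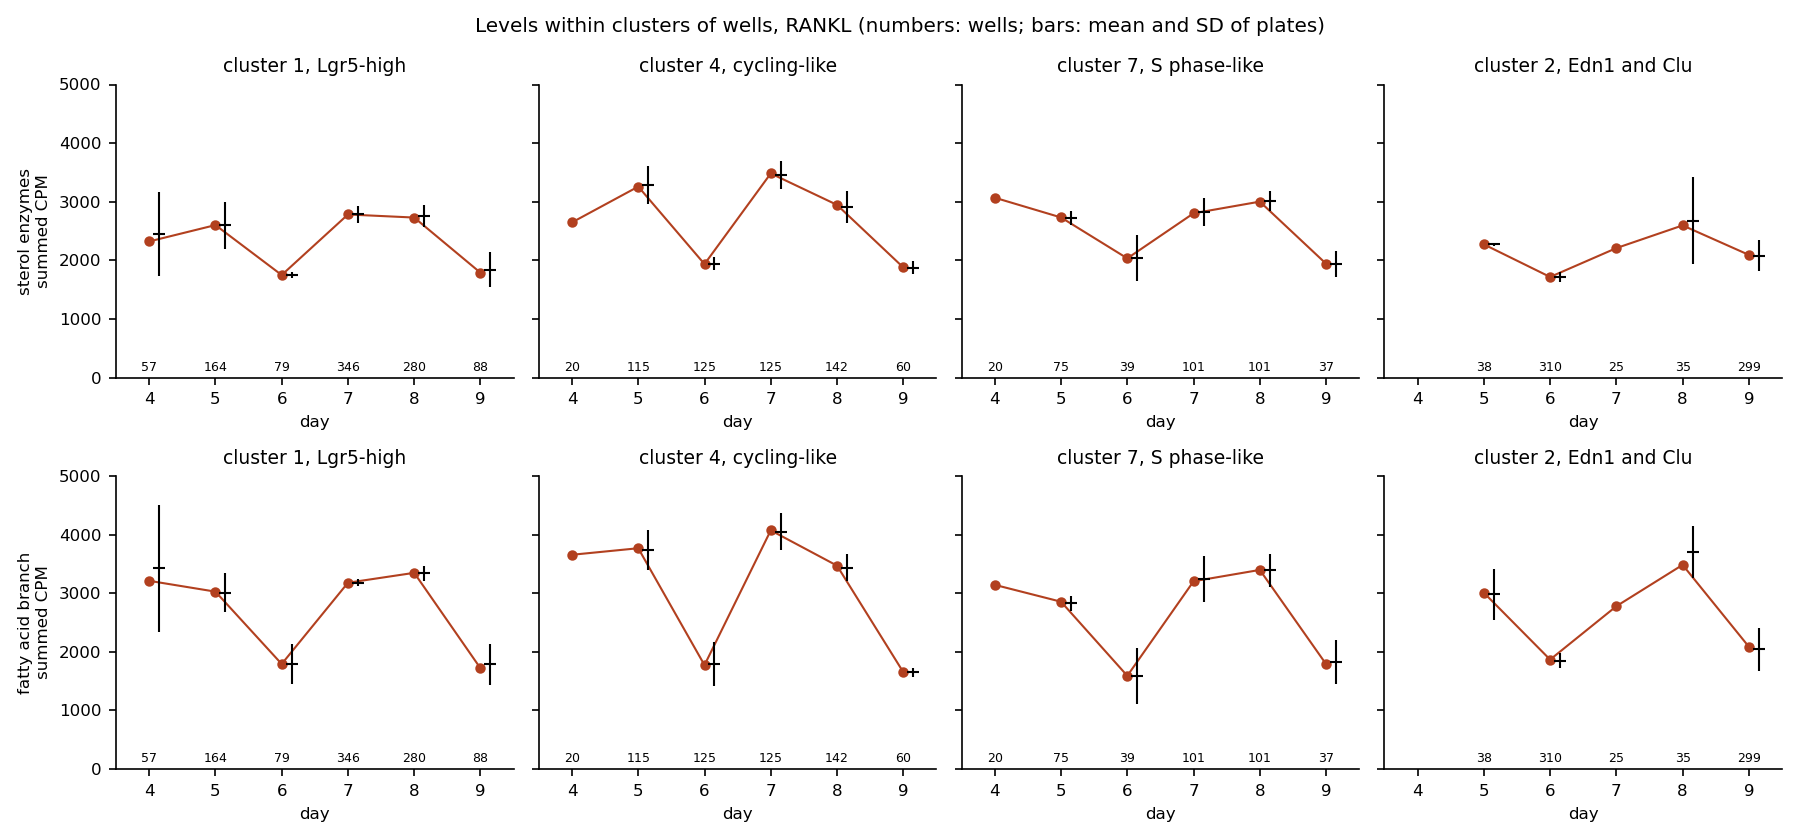
Summed CPM, not TMM-scaled, of the sterol enzymes (top) and fatty acid genes (bottom) by day within 4 RANKL clusters found without these genes. Points pool all wells of a day with at least 20 wells, bars are mean and SD of plates, and the numbers give wells. The mean sterol sums of the Lgr5-high and cycling-like clusters are 1752 and 1941 CPM on day 6 and 1844 and 1876 CPM on day 9, below those of days 5, 7 and 8.

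The same comparisons were fitted within the Lgr5-high and the cycling-like cluster. In the Lgr5-high cluster Msmo1, Scd1 and Scd2, 3 of 26 members tested, fell from day 5 to day 6 (0.153% of genes lower), with log2 changes of -0.98 ± 0.22, -1.64 ± 0.39 and -0.93 ± 0.16. From day 6 to day 7 4 of 26 rose, Hmgcs1 with the same 3 genes (0.322% of genes higher), and from day 8 to day 9 Scd1 and Scd2 fell, 2 of 26 (0.0678% of genes lower). In the cycling-like cluster 8 of 24 fell from day 5 to day 6 (0.543% of genes lower). These were Hmgcs1, Idi1, Sqle, Tm7sf2, Msmo1, Sc5d, Scd1 and Scd2, Scd1 by 2.74 on the log2 scale (SE 0.34). From day 6 to day 7 10 of 24 rose (1.48% of genes higher), and from day 8 to day 9 4 of 24 fell, Acat2, Msmo1, Scd1 and Scd2 (0.225% of genes lower). The members' median log2 changes over these 3 steps were -0.48, 0.62 and -0.64 in the Lgr5-high cluster and -0.66, 0.83 and -0.66 in the cycling-like cluster. Fewer genes of any kind were called within these clusters than on whole plates, and the cause was not tested. Fdft1, Elovl6, Srebf2 and Ebp had positive differences between days 5 and 6 in the Lgr5-high cluster (0.18 ± 0.22, 0.26 ± 0.40, 0.08 ± 0.32 and 0.04 ± 0.47), opposite to whole plates, which did not pass the test.

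With CSRM617 the sterol sum was not lower on day 6 than on day 5 or day 0. Day 6 was the last day of that arm and was tested only against day 0. The lowest sterol sum was that of day 4, from plates with few wells. The 16 sterol enzymes in that table summed to 3523 ± 85.3 CPM on day 0 (n = 2), 3105 ± 131 on day 1, 4233 ± 293 on day 2 and 4144 ± 308 on day 3. On days 4, 5 and 6 the sum was 2814 ± 219.8, 3770.4 ± 72.2 and 4130.0 ± 38.5 CPM. The fatty acid sum was 5691 ± 261 CPM on day 0, 3962 ± 223 on day 1 and 5364 ± 137 on day 6.

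On day 1 of RANKL+CSRM617 Insig1 and Scd1, 2 of 27 tested members, were lower than on day 0, against 2.29% of all genes lower. Insig1 went from 719 and 722 CPM to 295 and 324 CPM (log2 change -1.22 ± 0.22, edgeR adjusted p = 0.001). Scd1 went from 525 and 542 CPM to 229.5 and 309 CPM (-0.99 ± 0.22), and it lost its call without day 0 plate 1, day 0 plate 2 or day 1 plate 1, each of which left 1 call. On day 3 3 of 27 members were higher than on day 0, a share close to the 10% of all genes that were higher. Scd1 had reached 1053 and 1114 CPM (log2 change 1.02 ± 0.22), Msmo1 792 and 950.1 CPM (0.68 ± 0.22) and Me1 61.9 and 103 CPM (1.21 ± 0.41). The count was 1 without day 0 plate 2 and 1 without day 3 plate 2. Me1 also lost its call by DESeq2, with wells weighted equally and with the replicate block (adjusted p = 0.11, 0.052 and 0.061), and Msmo1 with wells of at least 2000 UMIs (0.055), so that Scd1 alone held under every alternative.

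On day 6 of RANKL+CSRM617 0 of 27 members were called against day 0 by edgeR, where 7.51% of all genes were called. At an unadjusted p under 0.05 there were 9, of which 6 were higher, and DESeq2 called 0. Msmo1 was at 661 and 784 CPM against 582 and 500.3 CPM on day 0 (log2 difference 0.41 ± 0.24), Scd1 at 862 and 678 CPM (0.53 ± 0.23) and Hmgcs1 at 628 and 766 CPM against 649 and 779 CPM (-0.03 ± 0.23). Insig1 was at 486 and 546 CPM, below both day 0 plates (-0.48 ± 0.23). Idi1, at 695 and 678 CPM, lay above its day 0 plates at 490.4 and 459 CPM (0.53 ± 0.22), and Scd2, at 4011 and 4210.1 CPM, below those at 4424 and 4781 CPM (-0.16 ± 0.22). The day 6 plates held 53 and 55 wells, so that low genes were thinly counted, and Pmvk had 49 UMIs on day 0 and 1 on day 6. Cycling markers were lower on day 6 in 8 of 11 and S phase markers in 8 of 11, and M cell markers were higher in 8 of 9.

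The arms already differed on day 0. Over the genes that both arms hold, 5 of 29 members were lower in the RANKL+CSRM617 plates of day 0, against 7.07% of all genes. Fdft1 (log2 difference -0.85 ± 0.19), Tm7sf2 (-1.51 ± 0.39), Msmo1 (-0.53 ± 0.16), Stard4 (-0.61 ± 0.15) and Insig1 (-0.58 ± 0.19) were those called. The count was 2 without RANKL+CSRM617 day 0 plate 1 or plate 2 and 3 without RANKL day 0 plate 1. Enterocyte markers were lower there too, in 8 of 12. The arms were deposited as separate tables, so arm and experiment cannot be told apart, and changes from each arm's own day 0 were therefore compared.

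The change from day 0 to day 1 did not differ detectably between arms, with 0 of 29 members called by edgeR, where 0.365% of all genes were called. At an unadjusted p under 0.05 there were 3, Msmo1, Insig1 and Hmgcs1, and DESeq2 called 0. For Insig1 the difference was 0.63 ± 0.26. The change to day 3 was more positive with CSRM617 in 5 of 29 members, against 3.82% of all genes. These were Msmo1 (difference of log2 changes 1.22 ± 0.22), Scd1 (1.16 ± 0.29), Hsd17b7 (1.13 ± 0.35), Insig1 (1.06 ± 0.26) and Hmgcs1 (0.94 ± 0.23). This count depended on single plates, falling to 1 without RANKL+CSRM617 day 0 plate 1 and to 1 without its day 3 plate 2, to 2 without its day 0 plate 2 and to 3 without RANKL day 0 plate 3. Hsd17b7 also lost its call with all deposited wells, with wells weighted equally and with the replicate block (edgeR adjusted p = 0.059, 0.057 and 0.07), and Msmo1 alone held under every alternative. Enterocyte markers differed the same way in 8 of 12.

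By day 6 the arms had parted. The change from day 0 was more positive with CSRM617 in 16 of 29 members and more negative in none, against 7.1% of all genes in the first direction. The median difference of log2 changes was 1.39 over the members and -0.06 over all genes, with 1.54 for the sterol enzymes, 1.40 for the fatty acid genes and 0.35 for the regulators. Scd1 had the largest difference, 4.06 ± 0.33 (edgeR adjusted p = 8.2e-11). Next came Me1 (3.31 ± 0.87), Hsd17b7 (3.06 ± 0.41), Tm7sf2 (2.79 ± 0.65), Insig1 (2.57 ± 0.29) and Msmo1 (2.43 ± 0.23). With the plates of both arms scaled together, Hsd17b7 stood on day 6 at 202 and 279 CPM with CSRM617 and at 44, 33.8 and 42 CPM with RANKL alone. Me1 rests on 8 and 10 UMIs in the day 6 plates of the arms. In the squalene to cholesterol steps 8 of 10 genes were called, and 2 of 6 in the mevalonate steps (Hmgcs1 1.82 ± 0.25 and Idi1 1.99 ± 0.26). Srebf1, Srebf2, Acly and Fasn, with differences from -0.46 to 0.35, did not pass the test.

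**Figure D5:**
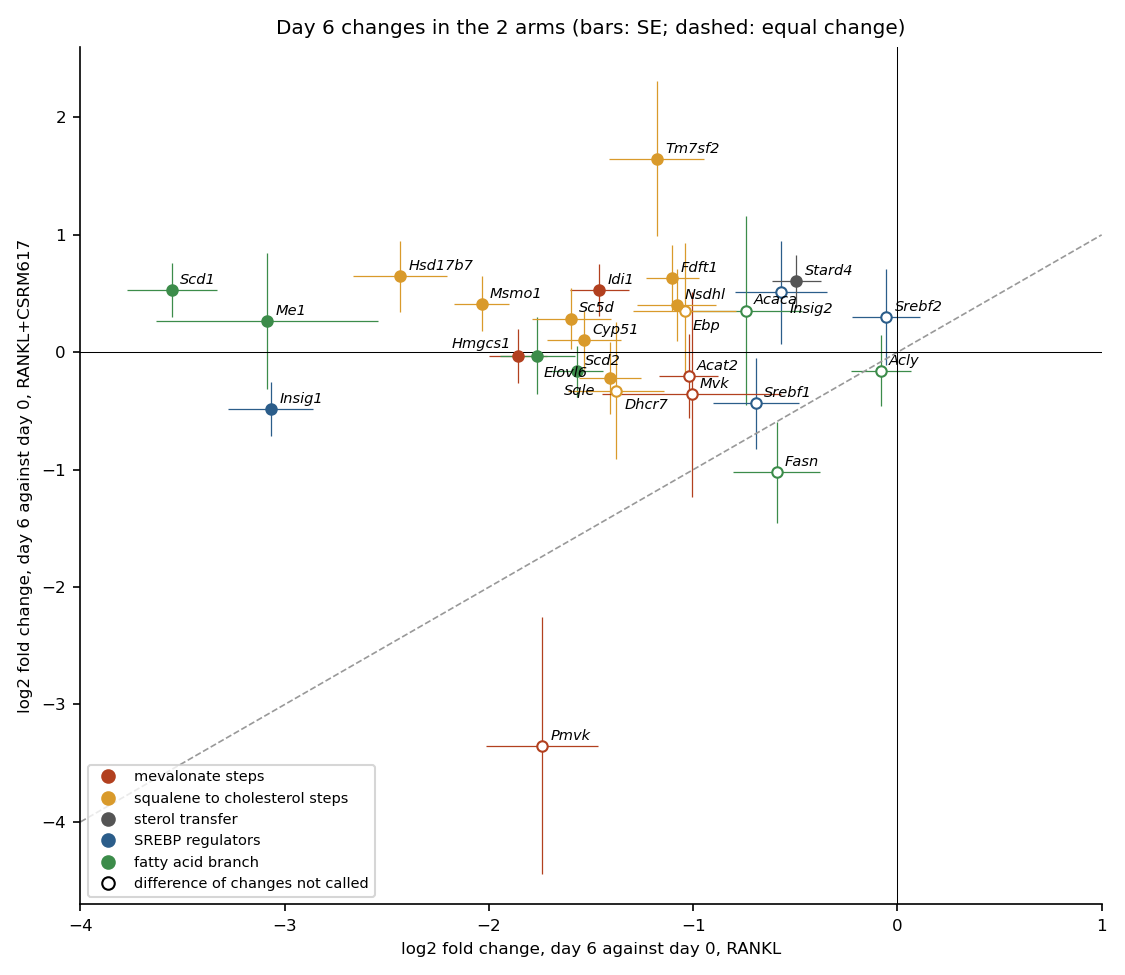
Log2 change from day 0 to day 6 with RANKL (x axis) and with RANKL+CSRM617 (y axis) for the 27 members tested in both arms, with SE bars and a dashed line of equal change; filled points are members whose changes differed. Most points lie left of 0 and above the dashed line, with Scd1 at -3.55 and 0.53 far from it.

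Of the 16 differences on day 6, 12 held under every alternative run, and Me1, Nsdhl, Sqle and Tm7sf2 lost the call under at least 1. Marker lists differed as well, since enterocyte markers were more positive with CSRM617 in 9 of 12, and stem markers in 6 of 8, cycling markers in 11 of 11 and S phase markers in 7 of 11 were more negative. On day 6, with both arms scaled together, the enterocyte sum was 6009 to 6913 CPM with CSRM617 and 1378 to 1623 CPM with RANKL alone, and the stem sum 1586 to 1748 CPM and 8171 to 10678 CPM. Their part in the result was not tested. In the 2 largest RANKL+CSRM617 clusters, both unnamed, the sterol sum on day 6, without TMM scaling, was 4081 ± 228 and 4609 ± 1326 CPM (n = 2 plates).

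Among other lipid genes, part of each further list was lower on day 6, most widely in fatty acid oxidation. On day 6 against day 0 of RANKL, where 19.4% of all genes were lower, 3 of 9 genes of the isoprenoid side branches fell. Among them were Pdss1 (log2 change -1.82 ± 0.22) and Pdss2 (-1.29 ± 0.37), which start ubiquinone synthesis. Pdss2 stood at 53.4, 314.4 and 75.2 CPM on day 0, the high value from the plate of 26 cells, and at 33.5, 40.4 and 48.7 CPM on day 6. Of 6 further genes that handle SREBP processing 3 fell, including Erlin1 (-1.52 ± 0.18) and Erlin2 (-0.80 ± 0.19), whose products act in degradation at the endoplasmic reticulum. In sterol transport and storage 6 of 12 fell and 2 rose. Abcg5, a sterol exporter of the enterocyte, fell from 158 ± 4.56 to 15.8 ± 3.93 CPM (n = 3), and Npc1, the lysosomal cholesterol transporter, rose by 2.81 ± 0.63 from 6 UMIs on day 0. In fatty acid modification and esterification 9 of 21 fell, with the triglyceride synthesis genes Dgat1 (-2.99 ± 0.30) and Dgat2 (-3.20 ± 0.34) among them. In fatty acid oxidation 17 of 20 fell, including Ppara (-2.48 ± 0.56) and Acaa2 (-2.27 ± 0.20).

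From day 6 to day 7 1 of 9 isoprenoid genes, 0 of 6 SREBP processing genes, 1 of 12 sterol transport genes and 2 of 21 fatty acid modification genes rose, and of 20 fatty acid oxidation genes 1 rose and 1 fell, while 18 of 30 members rose. Acaa2 was at 56.6 ± 10.6 CPM on day 6 and 59.9 ± 12.4 on day 7, and Dgat1 at 30.9 ± 7.48 and 38.1 ± 20.1 CPM. The difference between these lists and the members was not tested.

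A limit on single genes is that 13 of the 32 share exon bases with another gene model in the annotation, 10 on the opposite strand, as Fdft1 with Ctsb and Cyp51 with Akap9, and 4 on the same strand, as Tm7sf2 with Vps51 and Fdps with Gm43738, with 1 gene in both groups. How the counting treated such reads is not given in the sources used here, so levels of these genes are uncertain to that extent.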

How the data were processed

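Single cells were profiled with CEL-Seq2 and the authors deposited a table of raw UMI counts per gene and well for each arm, plus tables of natural log normalised values that were not used here. Reads were handled with kallisto, bustools and Seurat 3.1.5 against GRCm38, per the submitters' processing notes. Wells of at least 1000 UMIs were summed per plate. The quasi-likelihood test of edgeR 4.0.16 in R 4.3.3 followed, with TMM scaling, filterByExpr and Benjamini-Hochberg adjustment at 0.05. The RANKL plates (10000 genes tested), the RANKL+CSRM617 plates (6499) and all plates of days 0 to 6 (8766 genes in both tables) were fitted separately. Levels are scaled within an arm unless both arms are said to be scaled together, and levels within clusters are not TMM-scaled. SE is the log2 change over the square root of F. Alternatives were DESeq2 1.42.0, other well and gene filters, wells weighted equally, a replicate block and each plate left out. Wells were clustered with leidenalg 0.10.2 (2000 variable genes, 30 components, resolution 1.0) without the 32 genes, and doublets were not called. The script was tested on simulated data. The members, lists and motifs were chosen with earlier results of these data known. All 32 members are named, and of each other lipid list the 2 called genes with the largest change from day 0 to day 6 of RANKL. Members without a RefSeq promoter window were Fdft1, Fdps, Scd1, Scd2, Sqle and Stard4, and some related genes are not reported here.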

Additional observations from a re-analysis of the deposited data

Results flagged for a closer look

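In the results of this section the change from day 0 differed between the arms by edgeR's interaction test (adjusted p under 0.05); values are the log2 change with CSRM617 minus that with RANKL alone. For day 3 the differences were 1.22 (Msmo1), 1.16 (Scd1), 1.13 (Hsd17b7), 1.06 (Insig1) and 0.94 (Hmgcs1). For day 6 they were 4.06 (Scd1), 3.31 (Me1), 3.06 (Hsd17b7), 2.79 (Tm7sf2), 2.57 (Insig1), 2.43 (Msmo1), 1.99 (Idi1), 1.87 (Sc5d), 1.82 (Hmgcs1), 1.73 (Fdft1), 1.72 (Elovl6), 1.61 (Cyp51), 1.47 (Nsdhl), 1.40 (Scd2), 1.17 (Sqle) and 1.09 (Stard4).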

How the results depend on the processing

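Settings were DESeq2, all deposited wells, wells of at least 2000 UMIs, wells weighted equally, no low-count filter, the most abundant gene left out, a replicate block and each plate left out. The number of members called when each plate in turn was left out ranged, with RANKL, from 6 to 14 (day 1 against day 0), 4 to 8 (day 3), 22 to 27 (day 6), 21 to 25 (day 9), 1 to 11 (day 4 against day 3), 13 to 15 (day 6 against day 5), 14 to 17 (day 7 against day 6) and 5 to 9 (day 9 against day 8). With CSRM617 it ranged from 1 to 2 (day 1), 1 to 3 (day 3) and 0 to 0 (day 6). Between arms it ranged from 2 to 6 on day 0, and for the differences of change from 0 to 0 (day 1), 1 to 6 (day 3) and 13 to 16 (day 6). Over all genes the calls ranged, with RANKL, from 1769 to 2301 (day 1, 2375 with all plates), 1554 to 1934 (day 3), 3115 to 3749 (day 6), 2923 to 3586 (day 9), 485 to 963 (day 4 against day 3), 253 to 332 (day 6 against day 5, 433 with all plates), 442 to 507 (day 7 against day 6) and 149 to 305 (day 9 against day 8, 403 with all plates). With CSRM617 they ranged from 112 to 185 (day 1, 284 with all plates), 527 to 825 (day 3, 1167 with all plates) and 214 to 377 (day 6, 488 with all plates). Between arms they ranged from 445 to 818 on day 0, and for the differences from 13 to 36 (day 1), 163 to 510 (day 3) and 459 to 1047 (day 6).

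Within the cycling-like cluster 8, 10 and 4 members and 58, 153 and 34 genes were called for day 6 against day 5, day 7 against day 6 and day 9 against day 8. Within the Lgr5-high cluster the numbers were 3, 4 and 2 members and 12, 51 and 14 genes. There Fdft1 (0.18) and Elovl6 (0.26) reversed for day 6 against day 5, and the cause was not tested. Members uncalled on whole plates also changed sign there, such as Ebp (0.04) and Srebf2 (0.08) for day 6 against day 5, and Ebp (-0.30) and Srebf2 (-0.42) for day 7 against day 6. DESeq2 called 181 genes for day 1 of RANKL+CSRM617 and 54 genes for the day 1 difference between arms. With no low-count filter 1 member, Pmvk (-3.43), was called on day 6 of RANKL+CSRM617.

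Plate numbers did not pair the plates: deviations of same-numbered plates correlated above 0.1 in 27 of 135 RANKL pairs and 4 of 42 RANKL+CSRM617 pairs, and 10 of 30 and 6 of 14 plates correlated best with their own number. With the replicate block the members called were 13, 7, 9, 26 and 25 in the RANKL comparisons of days 1, 3, 4, 6 and 9, and 16, 18 and 8 for day 6 against day 5, day 7 against day 6 and day 9 against day 8. The 26 of day 6 had lost Insig2 and gained Mvk. The counts were 2, 2 and 0 with CSRM617, 4 between arms on day 0, and 0, 4 and 16 for the differences of change on days 1, 3 and 6. Few wells limit days 4 and 6 of RANKL+CSRM617 and day 4 of RANKL.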
